A study of Mus musculus with 115 samples.

Results

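The profiles described here are those of 1 inserted construct, CTCF_tile5_REST, in 6 amplicon NOMe-seq libraries: 3 of the group REST_NP and 3 of the group REST_ES. The libraries were chosen by the names of the groups and of the construct, and not by measured values. They are 6 of the 115 libraries of the series, which holds 275 constructs in 45 groups. The construct carries a REST motif inside a defined sequence and was placed in the mouse genome by recombinase-mediated cassette exchange (RMCE), which puts each construct into the same chromosomal acceptor site. The REST_NP and REST_ES cells share the 129S6/SvEvTac background, and the labels name no treatment, no time point and no further allele for either group. The labels do not spell out NP or ES, and the cell type given for both groups is embryonic stem cells. The assay reads only the inserted DNA, so no marker gene was measured and the cell type could not be checked. A single construct at a single acceptor site is not an endogenous REST target. The labels do not say that replicates came from separate cultures, so the p-values measure the spread between these libraries, which may be technical.

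REST is a zinc finger repressor that binds a long DNA motif near neuronal genes and recruits corepressor complexes there. It is abundant in pluripotent and non-neuronal cells, and its level is known to fall as neurons form. In NOMe-seq, nuclei are exposed to an enzyme that methylates GpC cytosines, and bisulfite conversion then shows which of these were reached, so a methylated GpC marks open DNA. DNA covered by a nucleosome or by a bound factor stays low, and a bound factor typically leaves a short low window with open DNA on either side.

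Every value is a methylated fraction between 0 and 1 at 1 cytosine, and the 23 GCH sites (GC followed by A, C or T) listed for the construct in the REST files had a value in all 6 libraries. The pooled libraries named tiles list 37 GCH sites of this construct, among them these 23. Positions are counted along the amplicon in base pairs, as the files give them. All 138 REST values had at most 1 decimal (tolerance 1e-09), whereas none of the 111 values of the same construct in the tiles libraries did. Rounding to 1 decimal can move a difference between 2 group means by at most 0.1. Read depth is unknown, because the files give no counts. No pair of REST libraries had the same profile. Libraries of the same group shared the same 1-decimal value at 11 to 14 of 23 sites, and libraries of different groups at 4 to 12 of 23.

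The REST motif window, 28 bp long and centred at position 226.5, was more methylated in REST_NP than in REST_ES, while the sites within 40 bp on either side were less methylated. Over the 4 window sites, library means were 0.225, 0.15 and 0.325 in REST_NP, against 0.075, 0.075 and 0.05 in REST_ES. Every REST_NP library was above every REST_ES library in the window, and the REST_NP libraries spread more widely. Over the 4 flank sites, library means were 0.325, 0.275 and 0.375 in REST_NP, against 0.725, 0.575 and 0.625 in REST_ES. Here every REST_NP library was below every REST_ES library. The profile of REST_ES was thus a low window between high flanks. In REST_NP the window lay only slightly below the flanks, and both were part of a wider dip. REST_NP means were 0.767 at site 129, 0.467 at site 168, 0.3 at site 192 and 0.6 at site 299.

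Among the 6 measures taken over stretches of the construct was the step between flank and window, which is computed from the flank and window means. Since these differed in opposite directions, the difference of the step is larger than either by construction and is not separate evidence. Flank minus window was 0.1, 0.125 and 0.05 in the REST_NP libraries, against 0.65, 0.5 and 0.575 in the REST_ES libraries. The group means were 0.0917 ± 0.0382 in REST_NP and 0.575 ± 0.075 in REST_ES (SD, n = 3 each), a difference of −0.483. The window averaged 0.233 ± 0.0878 in REST_NP and 0.0667 ± 0.0144 in REST_ES (SD, n = 3 each), and the flanks averaged 0.325 ± 0.05 in REST_NP and 0.642 ± 0.0764 in REST_ES. In an exact permutation test, two-sided, each of these 3 measures gave p = 0.1, the smallest value that 3 against 3 libraries allow, and 0.15 after Benjamini-Hochberg adjustment over 6 measures. These measures therefore could not pass a threshold of 0.05 in this design. With every value moved by 0.05 towards the other group, the extreme that rounding allows, the difference was 0.0667 in the window and −0.283 for flank minus window. With flanks of 60 bp in place of 40 bp, the flank difference was −0.206.

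Site by site, 6 of 23 passed limma's test on the logit-like M-value (adjusted p under 0.05), which is 26.1% of the sites tested. Of these, 4 rose in REST_NP (17.4%) and 2 fell (8.7%), and 9 sites were at an unadjusted p under 0.05. The groups did not overlap at 9 of 23 sites (39.1%), with REST_NP above at 5 (21.7%) and below at 4 (17.4%). The median difference over all 23 sites was 0.0333, while it was 0.167 over the window sites and −0.317 over the flank sites. With a block for the replicate number, which pairs the libraries weakly here, 2 sites passed, 1 higher and 1 lower. Centring each library on its far sites gave 2 higher and 5 lower sites, and centring on the library median gave 17 higher and 1 lower. The median site of a library lay at 0.3, 0.3 and 0.4 in REST_NP and at 0.7, 0.5 and 0.6 in REST_ES, so the library medians themselves differed by −1.45 on the log2 scale. The flanks averaged 0.325 in REST_NP and 0.642 in REST_ES, near these medians. Centring on the medians thus raises every site in REST_NP relative to REST_ES and takes out much of the flank difference by construction.

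Within the window, site 220 had 0.2, 0.1 and 0.3 in REST_NP, against 0, 0 and 0 in REST_ES. REST_ES was listed at 0 in every library there, and each REST_NP library lay above it. This site rose by 2.55 ± 0.43 (log2 M-value, SE, n = 3 each; limma adjusted p = 0.0166). Because REST_ES was listed at 0, the size depends on the offset added to the fractions, with 4.59 at an offset of 0.01 and 1.82 at 0.1. The site at the upstream edge of the window had 0.2, 0.2 and 0.3 in REST_NP, against 0.1, 0.1 and 0.1 in REST_ES. It rose by 1.12 ± 0.21 (log2 M-value, SE, n = 3 each; limma adjusted p = 0.0178). With the replicate block both had an adjusted p of 0.0588 in limma, and over all alternatives it ran from 7.61e-06 to 0.517 at site 220 and from 4.89e-06 to 0.995 at the upstream edge site.

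The other window sites did not pass. Site 234 had 0.3, 0.2 and 0.4 in REST_NP, against 0.1, 0.1 and 0 in REST_ES, with no overlap between the groups (limma adjusted p = 0.067). It had the widest gap in the window, 0.233, which is larger than rounding could produce. Site 238, at the downstream edge, had 0.2, 0.1 and 0.3 in REST_NP, against 0.1, 0.1 and 0.1 in REST_ES, and there the groups overlapped. REST_NP means were above REST_ES means at each of the 4 window sites, also after either centring, of which that on the library median raises every site. Leaving out any of the 3 REST_ES libraries left 0 window sites past limma's test.

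On the scale of fractions, the 3 largest differences were at the flank sites 243, 253 and 192. At site 243, 3 bp beyond the window, REST_NP libraries had 0.2, 0.2 and 0.3, against 0.8, 0.6 and 0.7 in REST_ES. The mean difference was −0.467, and the site fell by 2.68 ± 0.40 (log2 M-value, SE, n = 3 each; limma adjusted p = 0.0134). The adjusted p was 0.0588 with the replicate block and ran up to 0.0765, reached without REST_ES replicate 3, with 15 of 17 alternatives past the threshold. Across the window edge, from site 238 to site 243, REST_ES went up by 0.6 on average, whereas in REST_NP the 2 sites had nearly the same mean, 0.2 and 0.233.

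Site 253 had 0.3, 0.3 and 0.3 in REST_NP, against 0.7, 0.6 and 0.6 in REST_ES, and fell by 1.82 ± 0.18 (log2 M-value, SE, n = 3 each; limma adjusted p = 0.0036). This call also held with the replicate block (limma adjusted p = 0.0474) and in 16 of 17 alternatives. The exception was centring on the library median, with an adjusted p of 0.304, a centring that takes out much of the flank difference by construction. Farther downstream, site 266 had 0.5, 0.4 and 0.5 in REST_NP, against 0.7, 0.6 and 0.6 in REST_ES, and did not pass (limma adjusted p = 0.0525). Its difference turned positive, 0.56 on the log2 scale, when libraries were centred on their median.

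Upstream of the window the REST files list 1 GCH site of the flank, site 192, with 0.3, 0.2 and 0.4 in REST_NP, against 0.7, 0.5 and 0.6 in REST_ES. The groups did not overlap, but the site missed the threshold (−1.68 ± 0.45, log2 M-value, SE, n = 3 each; limma adjusted p = 0.0525). The mean differences of the upstream site, −0.3, and of the 3 downstream sites together, −0.322, were of like size. Sites 192, 234 and 266 passed in several alternatives, among them untransformed fractions and leaving out the low stretch. With values moved by 0.05 towards the other group, 2 sites passed, 243 and 253, both lower. That fit used untransformed fractions, on which 9 sites passed without the move.

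Beyond the flanks the sign changed again on the downstream side. Site 299, the last GCH site listed in the REST files, had 0.6, 0.6 and 0.6 in REST_NP, against 0.5, 0.4 and 0.4 in REST_ES. It rose by 0.88 ± 0.17 (log2 M-value, SE, n = 3 each; limma adjusted p = 0.0178), and by 0.52 when libraries were centred on their far sites, where it did not pass. It passed in 9 of 17 alternatives, with adjusted p-values from 6.07e-07 to 0.442, and 0.0588 with the replicate block. In REST_ES the methylation therefore declined from the flank to this site, whereas in REST_NP site 299 was the highest of the listed GCH sites downstream of the window.

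On the upstream side, site 168 had 0.5, 0.5 and 0.4 in REST_NP, against 0.7, 0.5 and 0.6 in REST_ES, and did not pass (limma adjusted p = 0.188). The 8 sites from 50 to 129 were highly methylated in every library, with means of 0.875, 0.9 and 0.913 in REST_NP, against 0.875, 0.863 and 0.813 in REST_ES. Sites 71, 75 and 81 each had 0.9, 0.9 and 0.9 in REST_NP, against 0.9, 0.9 and 0.8 in REST_ES, and sites 50, 62, 78 and 129 likewise overlapped between the groups. One of the 8, site 96, passed the test, with 0.9 in each REST_NP library and 0.8 in each REST_ES library. Its limma adjusted p of 3.67e-07 rests on a spread of 0 within both groups, and its difference of 0.1 is no larger than rounding could produce. Over 17 alternatives the adjusted p of this site ran from 3.66e-07 to 1. Sites 220, 253, 299 and the upstream edge site of the window also passed with a listed spread of 0 in 1 group. Of the passing sites, 243 alone had a spread above 0 in both. Sites 192 and 234 had such a spread and larger differences than site 299 (−0.3 and 0.233, against 0.167), yet missed the threshold. How far rounding to 1 decimal set these spreads, and with them the SEs and adjusted p-values, was not tested. The 10 far sites together averaged 0.823 ± 0.0115 in REST_NP and 0.783 ± 0.0351 in REST_ES (SD, n = 3 each), with overlapping groups (exact permutation p = 0.2, adjusted p = 0.24).

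The low stretch from 14 to 37, whose 5 sites the other constructs of the same backbone and tile also hold, was near 0 in all 6 libraries. Its 5 sites averaged 0.04, 0.04 and 0.06 in the REST_NP libraries, against 0.02, 0.02 and 0.02 in REST_ES (exact permutation p = 0.1, adjusted p = 0.15). Sites 19, 23 and 32 were listed at 0 in every library. The other 2 sites, 14 and 37, differed by 0.0667 each, which rounding could produce, and neither passed. The difference of the low stretch, 0.0267, moved in the same direction as that of the window, 0.167. Whether it has a part in the window result was not tested.

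Averaged over all 23 sites, the groups could not be separated. The amplicon mean was 0.457, 0.443 and 0.496 in REST_NP, against 0.5, 0.457 and 0.448 in REST_ES, with overlapping groups (exact permutation p = 0.8). A mean over the whole construct adds the lower flanks (−0.317) to the window (0.167), the far sites (0.04) and the low stretch (0.0267), which were higher on average in REST_NP.

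The same construct was also measured in 3 libraries of a tiles pool, labelled embryonic stem cells as well, which differ from the REST libraries in pool and in the number of decimals. Replicate 2 of this pool stood apart, with 0.481 in the window and 0.436 in the low stretch, against 0.233 and 0.22 in replicate 1 and 0.115 and 0.117 in replicate 3. At the flanks the tiles libraries had 0.771, 0.589 and 0.682 (mean 0.681 ± 0.0908, SD, n = 3), which overlapped the REST_ES libraries and lay above all REST_NP libraries. These 3 tiles libraries served as the comparison for both REST groups.

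REST_NP was lower than the tiles libraries at 4 of 4 flank sites in limma (3 of 4 with the replicate block), and REST_ES at 0 of 4. Differences ran from −0.274 at site 192 to −0.444 at site 243 for REST_NP. Over all 23 sites, 8 passed for REST_NP (34.8%), 7 of them lower (30.4%), and 10 for REST_ES (43.5%), 8 of them lower (34.8%). Without tiles replicate 2 the flank counts were 4 for REST_NP and 1 for REST_ES, and without another library 2 to 3 for REST_NP and 0 for REST_ES. In the window the order was the other way round: 0 of 4 sites passed in REST_NP and 3 of 4 were lower in REST_ES. The REST_ES window count was 0 without REST_ES replicate 1, 1 without REST_ES replicate 3, 2 without REST_ES replicate 2 or tiles replicate 1 or 2, and 1 with the tiles values rounded to 1 decimal. At the low stretch, where 3 of 5 sites were lower in REST_NP and 5 of 5 in REST_ES, the tiles libraries were also higher, and the part of this difference in the window counts was not tested. The low stretch count was 0 of 5 for REST_NP without tiles replicate 1 and 3 of 5 for REST_ES without REST_ES replicate 1.

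The tiles pools also held a construct with the same backbone and tile named CTCF_tile5_REST_r, in another pool. The labels do not define the suffix. It shares all 4 flank sites and 3 of 4 window sites (not site 234) with the REST construct. At the flanks REST_r had 0.29, 0.357 and 0.388 in its 3 libraries, a mean of 0.345 ± 0.05 (SD, n = 3). REST_NP, at 0.325, differed from it by −0.0203 (exact permutation p = 0.7, adjusted p = 0.7 over 4 comparisons), and REST_ES, at 0.642, by 0.296 (exact permutation p = 0.1, adjusted p = 0.2). A p above the threshold does not show that REST_NP and REST_r were alike.

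In the shared window sites REST_r had 0.251 ± 0.0313 (SD, n = 3). REST_NP averaged 0.211 ± 0.0839 there and REST_ES 0.0667 in each of its 3 libraries, differences from REST_r of −0.0403 (exact permutation p = 0.5, adjusted p = 0.667) and −0.185 (exact permutation p = 0.1, adjusted p = 0.2). Over the 21 sites with a value in all libraries, the mean absolute difference from REST_r was 0.0611 for REST_NP and 0.136 for REST_ES. REST_NP was the nearer at 13 of 21 sites, among them 3 of 3 window sites and 4 of 4 flank sites. Sites 19, 23 and 32 were ties, since both groups were listed at 0. At some far sites the distances were too close for 1 decimal to resolve, as at site 75 with 0.0164 for REST_NP and 0.017 for REST_ES. Window nearness was not particular to REST_NP. At the upstream edge site, 220 and 238, the REST construct in the tiles libraries averaged 0.272 ± 0.206, 0.224 ± 0.216 and 0.337 ± 0.149 (SD, n = 3). REST_r had 0.25, 0.227 and 0.277 there, and REST_NP 0.233, 0.2 and 0.2. The tiles mean was closer than REST_NP to REST_r at sites 220 and 238, but not at the edge site. Site 299 was among the sites where REST_NP was nearer, at 0.6 in REST_NP, 0.433 in REST_ES and 0.599 ± 0.0787 (SD, n = 3) in REST_r. Nearness to REST_r was not particular there, since the REST construct itself had 0.639 ± 0.147 (SD, n = 3) in the tiles libraries. Neither REST group passed limma's test against these (adjusted p = 0.735 for REST_NP and 0.145 for REST_ES). All constructs of this backbone and tile in the tiles pools averaged from 0.46 (BANP) to 0.689 (CTCF) at site 299, above REST_ES.

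Among the other constructs of this backbone and tile in the tiles pools, flank levels were 0.774 ± 0.0846 with CTCF, the zinc finger protein of insulators, and 0.579 ± 0.0666 with BANP, which binds CpG-rich promoters (SD, n = 3 each). The flanks were 0.438 ± 0.0507 with BHLHE40, a circadian repressor, and 0.357 ± 0.0811 with the OctSox motif of the pluripotency factors (SD, n = 3 each). The partners named _r lay between 0.286 for OctSox_r and 0.414 for CTCF_r. REST_NP, at 0.325, fell within the range of the partners, while REST_ES, at 0.642, lay above all of them. These constructs came from other pools than the REST libraries, and their levels are given side by side without a test.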

How the data were processed

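Per the labels' protocols, phenol-chloroform DNA was converted with bisulfite and the inserted constructs were amplified. Trimmomatic 0.32 is named in the submitters' processing notes. How reads were aligned, how methylation was called, with which coverage minimum and against which build is not given in the sources used here. Each value, as deposited by the authors, is a methylated fraction of 1 cytosine, without counts, so depth is unknown and no counting interval is given. Of 18 sites in the CGH files, 12 lay 1 base before a GCH site and repeated its values (72 of 72 identical). These were not used. The remaining 6 entered as an alternative chosen after seeing the data.

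The M-value was log2((f + 0.05)/(1 − f + 0.05)). The test at each site was limma's, version 3.58.1, under R 4.3.3 (two-sided, Benjamini-Hochberg over 23 sites, threshold 0.05). It was tried on simulated data with the same noise at every site, whereas the spread differed between sites here. The outcome of that trial is not used as support for the calls. Means of stretches were compared by exact permutation with scipy 1.17.1, numpy 2.4.6, pandas 2.3.3 and Python 3.11.15. The offset of 0.05 was chosen because the values have 1 decimal. By rule every GCH site was to be named. The text gives the values of those that the results turn on and summarises the rest by stretch. The stretches, lists and members were chosen with earlier results of these data known. The comparisons with REST_r were added after seeing the data. Same-numbered REST_NP and REST_ES libraries deviated together at correlations of 0.108, 0.26 and 0.141 over 23 sites, each over 0.1, so the replicate number was used as a block beside the results. REST_NP replicate 3 and REST_ES replicate 1, which differ in number, correlated at 0.266, above each of these. Against the tiles libraries and REST_r, libraries of the same number were blocked as well, although no such correlation was computed for them. The labels state no pairing.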

Additional observations from a re-analysis of the deposited data

Results flagged for a closer look

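Among the 6 GpC sites listed in the CGH files alone, 1 had REST_NP libraries that were all above the REST_ES libraries, in data that the comparisons of GCH sites did not use. Site 232 lies inside the motif window and had 0.2, 0.1 and 0.3 in REST_NP, against 0, 0 and 0 in REST_ES, a mean difference of 0.2. When the 6 sites were added to the fit, it rose by 2.55 ± 0.43 (log2 M-value, SE, n = 3 each; limma adjusted p = 0.0157), a size that depends on the offset since REST_ES was listed at 0. The other 5 sites did not pass. Site 256, at the downstream flank, had 0.6, 0.6 and 0.7 in REST_NP, against 0.8, 0.7 and 0.7 in REST_ES. The groups overlapped there, with means of 0.633 in REST_NP and 0.733 in REST_ES (limma adjusted p = 0.185). Its REST_NP mean was above those of the neighbouring sites 253 (0.3) and 266 (0.467). With the 6 sites added, the flank difference was −0.273 in place of −0.317.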

How the results depend on the processing

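The direction at the window, at the flanks and of flank minus window was the same under every alternative run. Leaving out 1 library at a time, the difference ran from 0.121 to 0.208 in the window, from −0.35 to −0.275 at the flanks and from −0.521 to −0.446 for flank minus window. It ran from 0.0233 to 0.0583 at the far sites, from 0.02 to 0.03 in the low stretch and from −0.0181 to 0.013 for the amplicon mean. The amplicon mean also turned positive without REST_NP replicate 1 (0.00145) or replicate 2 (0.00797) and without REST_ES replicate 1 (0.013), as M-values (0.215), with the CGH-only sites (0.0092) and with values moved by 0.05 towards the other group (0.0971). That move also turned the far sites (−0.06) and the low stretch (−0.0733) round. Flanks of 20 bp turned the far sites to −0.00556, and centring on far sites turned the low stretch to −0.0133. The cause was not tested.

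The count of 6 sites became 18 when libraries were centred on their median and 2 with the replicate block. It became 2 with values moved by 0.05 towards the other group, fitted as untransformed fractions, which gave 9 without the move. It ran from 2 to 7 when 1 library was left out (3 without REST_ES replicate 2 and 2 without replicate 3). Against the tiles libraries the counts ran from 5 to 9 for REST_NP (5 without REST_NP replicate 1 or 2 or tiles replicate 1) and from 3 to 11 for REST_ES (3 without REST_ES replicate 1, 5 without replicate 3). A group left with 2 libraries shares its spread with the other group. Against REST_r, leaving out 1 library gave −0.0478 to 0.00472 for the REST_NP flanks, −0.0847 to −0.00138 for its shared window sites, 0.255 to 0.33 for the REST_ES flanks and −0.198 to −0.167 for its window sites. The REST_NP flank difference turned positive without REST_NP replicate 2 (0.00472), without replicate 3 of REST_r (0.00115) and with REST values moved by 0.05 (0.0297), which also turned its window difference positive (0.00973). In a paired sign-flip test on the stretches, where the smallest p is 0.25, the replicate block keeps each mean difference. It moved neither tiles count by over 1.5 times. Far sites and flank minus window were not centred on far sites, since that gives no separate value. Values with 1 decimal and unknown depth limit what can be resolved to differences above 0.1.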

Other observations

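At site 129 the REST files and the tiles files differed in the same way for both groups. It had 0.7, 0.8 and 0.8 in REST_NP and 0.8, 0.7 and 0.7 in REST_ES, against 0.517, 0.426 and 0.432 in the tiles libraries of the same construct. Both differences passed limma's test (adjusted p = 0.0185 for REST_NP and 0.0319 for REST_ES). With the replicate block, or without any 1 of the REST_NP libraries, it did not pass for REST_NP, nor for REST_ES without REST_ES replicate 1 or 3. The REST_r construct of the other tiles pool had 0.432 ± 0.025 (SD, n = 3) at this site.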
